A study of Mus musculus with 10 samples.

Results

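Cluster 4 was the largest of the 25 clusters among the DSS cells of the colonic crypts, and its members were the cells that the authors' annotation places in that cluster, which it labels "other" and gives no cell type. It held 241 of the 3065 annotated colonic cells, in a series of 25204 annotated cells. Of these, 230 came from the library of mice treated with dextran sulfate sodium (DSS) and 11 from the library of normal mice. DSS is a sulfated polysaccharide that damages the colonic epithelium when mice drink it. Normal colonic crypts and DSS colonic crypts were each profiled as 1 droplet-based 3′ single-cell library, and the other 8 libraries of the series were organoid cultures. The labels give only the tissue (crypt) and the treatment, and not the strain, age, sex or number of animals behind either library, while the methods of the study name female mice for its colitis model. With 1 library for each condition no difference between the conditions could be tested, so every comparison below describes these libraries, and every interval covers counting error only.

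The colonic epithelium is renewed from stem cells at the base of the crypts. Their daughters divide in the transit amplifying zone and mature on the way up into absorptive colonocytes, mucus-filled goblet cells and rarer hormone-producing or tuft cells. Wnt signals keep the base undifferentiated, and homeobox genes record the position of a cell along the bowel. After damage by DSS, epithelial cells are known to switch on antimicrobial, chemokine and oxidant-producing genes.

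Cluster 4 held 11 of 1132 kept cells in the normal library, or 0.972% (exact Clopper-Pearson 95% interval 0.486% to 1.73%). In the DSS library it held 230 of 1933 cells, or 11.9% (10.5% to 13.4%). These shares are not read as a change in abundance, because several genes that lead the cluster also differed between the libraries. Of the 25 clusters, 14 drew over 90% of their cells from 1 library, and cluster 4 drew 95.4% from DSS. Its cells were deep: the median was 25356 UMIs (unique molecular identifiers, each 1 counted transcript molecule) per normal cell and 22497 per DSS cell, with 4935 and 4629 genes. The 11 normal cells ranged from 1702 to 46671 UMIs and summed to 228627, and the DSS cells summed to 4998598. Levels are summed UMIs scaled to 1 common total per group of cells (CPM), so that 10 CPM rested on 2.29 UMIs in the normal cells and on 50.0 in the DSS cells. The libraries shared 42 barcodes in all, 2 among kept cells and 0 within cluster 4.

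The libraries also differed in sex-linked transcripts. Xist, the RNA that silences an X chromosome in females, had 155 UMIs in 8 of the 11 normal cells and 0 UMIs in the 230 DSS cells. Eif2s3y, a Y-linked translation factor gene, had 0 UMIs in the normal cells and 344 in the DSS cells, 161 of which carried it. The same split held over the whole libraries: 86.4% of normal cells had a UMI of Xist against 0.155% of DSS cells. The library labelled DSS thus went against the sex that the methods give. Sex and DSS therefore cannot be told apart in any difference below.

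Cluster 4 was epithelial. Epcam, an adhesion molecule of epithelial cells, stood at 1653 CPM in the normal and 2060 CPM in the DSS cells. The pan-epithelial list of 10 genes summed to 20436.5 CPM in the DSS cells of the cluster against 26725.8 CPM in the other DSS cells. Of its members, 0 were at least 2-fold higher and 1 was lower. In the normal library it summed to 17438.9 against 27083.5 CPM, with 0 higher and 2 lower. The pan-leukocyte list summed to 24.2 CPM in the DSS cells of the cluster against 500 CPM in the other DSS cells, and Ptprc had a UMI in 3 of 230 DSS cells and 0 of 11 normal cells. The enteroendocrine list summed to 11 CPM against 565 CPM, and 9 of its 19 members were at 0. The tuft cell list summed to 8.40 CPM against 75.4 CPM. Stromal genes were nearly absent too, since the fibroblast list summed to 6.60 CPM with 8 of 10 members at 0. The macrophage or dendritic cell list was not near 0, with 534 CPM against 1437 CPM in the other DSS cells. In the normal library it summed to 385 CPM against 340 CPM, with 9 of its 13 members at 0 in cluster 4.

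Markers of mature cells were low. Of the 21 absorptive colonocyte genes with at least 10 CPM in cluster 4 or in the other DSS cells, 18 were at least 2-fold lower in cluster 4, beside 8.56% of all 8269 genes compared. Car1, a carbonic anhydrase of surface colonocytes, stood at 114 CPM in the DSS cells of cluster 4 and 4933 CPM over all DSS cells. Krt20, a keratin of mature colonocytes, stood at 12.2 CPM, and Slc26a3, the chloride and bicarbonate exchanger, at 7.60 CPM. Of 16 goblet cell genes, 14 were at least 2-fold lower than in the other DSS cells. The cycling genes Mki67 and Top2a stood at 15.8 and 5.80 CPM, against 211 and 230 CPM in the DSS cells of cluster 13.

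Of the 19 marker lists, the crypt base stem cell list had the most members higher in the DSS cells. Of its 15 genes with enough counts, 8 were at least 2-fold higher in cluster 4 than in the other DSS cells and 1 was lower, beside 4.61% of all genes higher. In the normal library 4 of 14 were higher and 2 were lower, beside 11.3% of all genes higher and 16.8% lower. There the S phase list had more members higher, 12 of 16, whereas 5 of 15 were higher in the DSS library. Smoc2, a secreted matrix protein of crypt base cells, stood at 60.02 CPM in the DSS and 39.4 CPM in the normal cells, against 14.2 and 8.23 CPM in the other cells of each library. Ascl2, a Wnt-driven transcription factor of stem cells, stood at 23.4 and 17.5 CPM against 6.68 and 8.64 CPM. Slc12a2, a chloride cotransporter of the lower crypt, stood at 286 and 192 CPM. In the DSS cells of clusters 13, 2 and 5 it stood at 277, 412 and 341 CPM. Prom1 went the other way, with 69.2 CPM in the DSS cells against 193 CPM in the others. The crypt base stem cell list summed to 901 CPM in the DSS cells of cluster 4, against 579 CPM in the other DSS cells. In the DSS cells of clusters 13, 2 and 5 it summed to 1031, 1217 and 920 CPM, so it did not set cluster 4 apart from these.

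Lgr5, the receptor that defines cycling crypt base stem cells, was not at its highest here. It stood at 9.80 CPM in the DSS cells of cluster 4 (exact Poisson 95% interval 7.25 to 13 CPM, from 49 UMIs), against 23.9 CPM (19.0 to 29.7 CPM) in the DSS cells of cluster 2, which the authors label stem. When every cell was thinned to 5000 UMIs, 4.64% of 194 DSS cells of cluster 4 kept a UMI of Lgr5 and 11.2% of 143 DSS cells of cluster 2 did, while 36 and 25 shallower cells were left out. None of the genes that led cluster 4 is on the stem cell list, so the cluster is called by its number here.

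The leading genes were those with at least 50 CPM in both libraries and the highest ratio to the other cells of the same library, by the lower of the ratios from both. Nxpe2, an epithelial gene of little known function at chr9:48318006-48353454 (mm10, minus strand), led with 192 CPM against 19.3 CPM in the normal library and 111 against 8.10 CPM in the DSS library. Adh1, a class I alcohol dehydrogenase that also oxidizes retinol, came next with 1387 against 121 CPM and 1263 against 162 CPM. Ttr, the carrier of thyroxine and retinol-binding protein, stood at 136 against 7.37 CPM and at 250 against 39.4 CPM. The next genes were Hspb1, a small heat shock protein, Cnn3, an actin-binding calponin, and Cd177, a surface protein also known from neutrophils. Beside it, the neutrophil list summed to 42.4 CPM in the DSS cells of cluster 4, with S100a9 at 17.8 CPM against 19472 CPM in the 6 leukocyte-rich clusters.

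Several of the leading genes were abundant, and others were regulators. Gpx2, the glutathione peroxidase of the gut epithelium, stood at 3197 CPM in the normal cells against 579 CPM in the other cells of that library, and at 3732 against 934 CPM in the DSS library. Gdf15, a stress-induced cytokine of the TGF-beta family, stood at 402 against 100 CPM and at 356 against 67.0 CPM. Among regulators, Foxq1, a forkhead factor, stood at 87.5 and 120 CPM, and Tcf7l1, a transcription factor at the end of the Wnt pathway, at 56.9 and 90.2 CPM. Kcnn4, a calcium-activated potassium channel used in secretion, stood at 157 and 144 CPM. Other leading genes were Ceacam10, Cbr2, Clca3b, Hid1, B3gnt7, B3gnt5, Cela1 and Cd81, with log2 ratios to the other cells of 1.58 to 2.85. Not all of the leading genes were higher than in each similar cluster. In the DSS cells of cluster 13 Gpx2 stood at 3856 CPM and Kcnn4 at 146 CPM, beside 3732 and 144 CPM in cluster 4. Cd81 was only slightly lower there, at 436 CPM beside 457 CPM. In the DSS cells of cluster 5 B3gnt7 stood at 289 CPM, Hid1 at 103 CPM and B3gnt5 at 110 CPM, beside 285, 86.2 and 103 CPM. Nxpe2 and Adh1 reached at most 33.6 and 579 CPM in the DSS cells of clusters 13, 2, 5 and 10. Several leading genes were uneven in the normal cells. In these, 1 cell held 81.1% of the 53 UMIs of Hspb1, 58.8% of the 17 of Cbr2, 51.6% of the 31 of Ttr and 43.2% of the 44 of Nxpe2.

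Thinned to 5000 UMIs, 97.4% of the DSS cells of cluster 4 kept a UMI of Adh1 and 95.4% one of Cd177 (99.1% and 97.4% before thinning), so nearly every cell carried them. The same shares in the leukocyte-rich clusters of that library were 5.75% and 18.4%, over 87 cells deep enough and with a median of 3532 UMIs before thinning. Nxpe2 was kept in 37.1% of DSS cells of cluster 4 and in 0 of the 87 cells of the leukocyte-rich clusters.

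**Figure D1:**
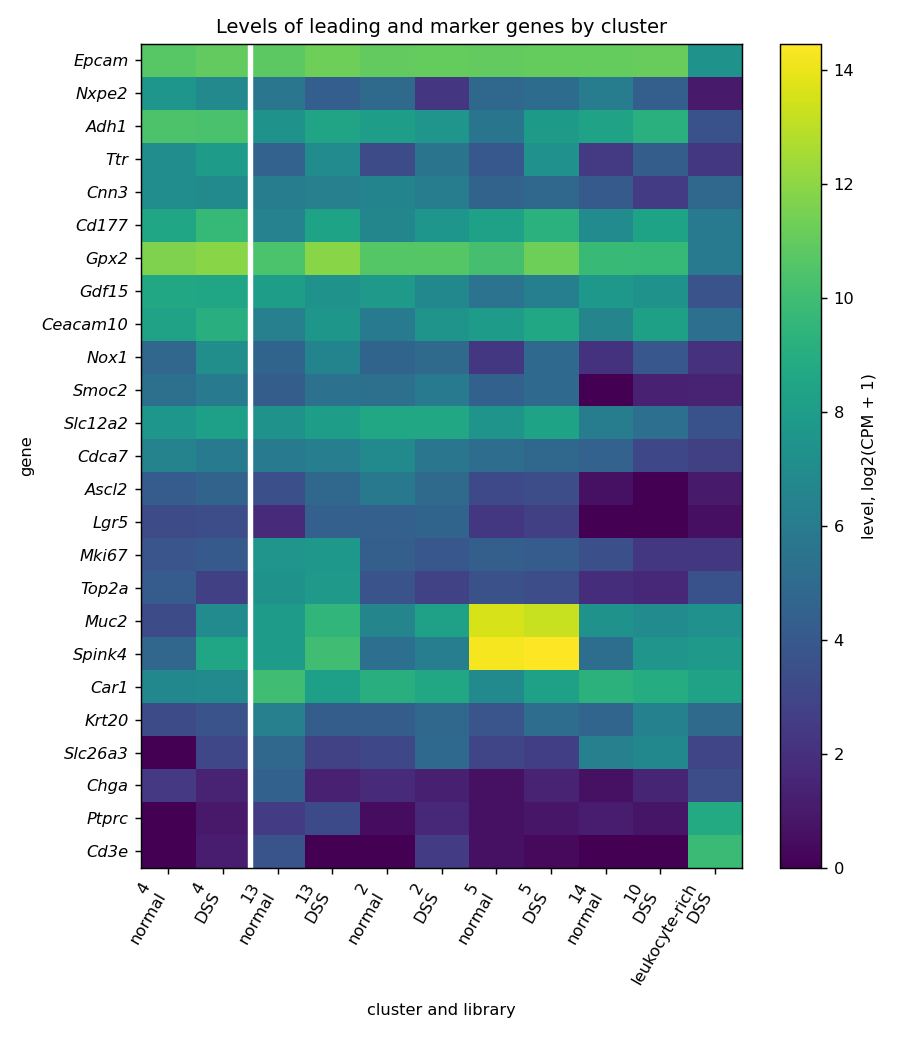
Levels of leading genes and of marker genes in summed cells, with clusters and libraries on the x axis, genes on the y axis and colour for log2(CPM + 1). Both columns of cluster 4 are bright for Adh1 and Gpx2, dark for Krt20, Chga and Ptprc, and share the crypt base genes Smoc2 and Slc12a2 with clusters 13 and 2.

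Homeobox genes differed between cluster 4 and the cluster that the authors label stem. These genes were chosen after their values were seen. Hoxb13, which marks the most distal bowel, stood at 313 CPM (298 to 329 CPM) in the DSS cells and 376 CPM (301 to 465 CPM) in the normal cells of cluster 4. In cluster 2 it stood at 17.5 CPM (13.4 to 22.5 CPM) and 43.5 CPM (35.6 to 52.6 CPM). Hoxd13 stood at 20.4 CPM in the DSS cells of cluster 4 and 1.17 CPM in those of cluster 2, and Hoxa13 at 21 and 9.34 CPM.

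The genes of the more proximal bowel showed the mirror image. Hoxb6 stood at 0.200 CPM in the DSS cells of cluster 4 (1 UMI) and 40.0 CPM in those of cluster 2, Hoxb8 at 0.800 and 61 CPM, and Osr2, a zinc finger factor, at 2.00 and 45.5 CPM. All of Hoxb6, Hoxb8 and Osr2 had 0 UMIs in the 11 normal cells, for which a floor of 3 UMIs stands at 13.1 CPM and the exact Poisson upper bound at 16.1 CPM. Cdx2, the caudal-type master factor of the intestine, stood at 66.4 CPM in the DSS cells of cluster 4 and 312 CPM in those of cluster 2, whereas Cdx1 stood at 424 and 364 CPM. Both libraries of cluster 4 thus carried the distal set, and cluster 13, which lay between, carried both sets at 122 CPM for Hoxb13 and 9.15 CPM for Hoxb8 in its DSS cells.

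**Figure D2:**
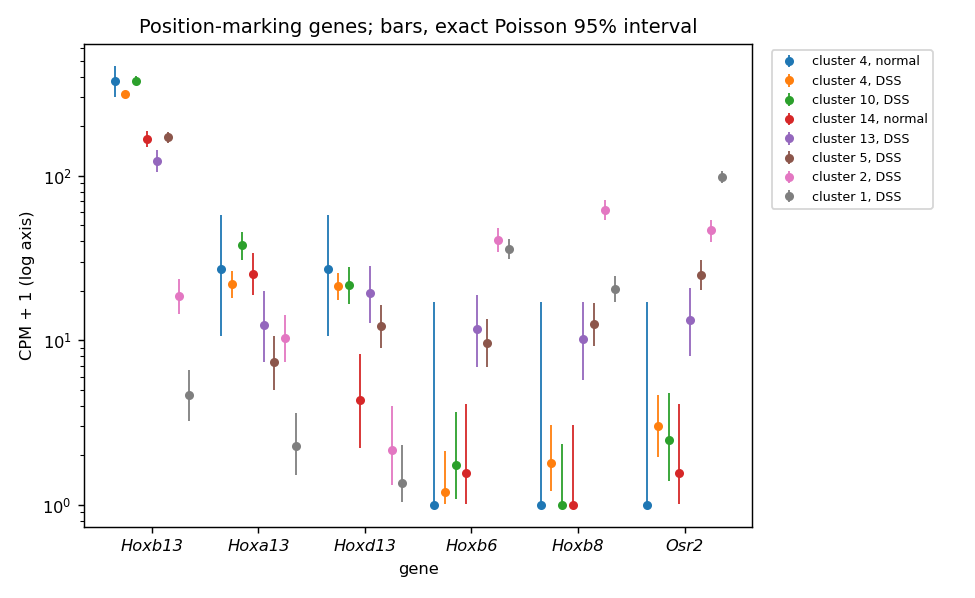
Levels of homeobox genes and Osr2 (x axis) as CPM + 1 on a log axis, one point per cluster and library, with exact Poisson 95% intervals as bars. Hoxb13 is above 300 CPM in both libraries of cluster 4 and below 20 CPM in the DSS cells of clusters 2 and 1, and the order is turned for Hoxb6, Hoxb8 and Osr2.

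Over the 5534 genes with at least 20 CPM in the DSS cells of cluster 4, the profile most like it was that of the DSS cells of cluster 13 (Spearman's rho 0.913 across genes, which are not independent replicates). Those of cluster 2 followed (0.908), then the normal cells of cluster 14 (0.904) and the DSS cells of cluster 5 (0.892). The 11 normal cells of cluster 4 reached 0.871 on their far smaller sum of UMIs. Cluster 14 held 77 normal cells and 1 DSS cell, so it was nearly confined to the other library. It shared Hoxb13 (166 CPM), Adh1 (316 CPM) and Nxpe2 (68.4 CPM) with cluster 4 but had Lgr5 and Smoc2 at 0 UMIs and Ascl2 at 0.556 CPM. Whether the DSS cells of cluster 4 correspond to the normal cells of cluster 4 or to those of cluster 14 was not tested, and values in cluster 14 are given beside several genes below.

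The second comparison sets the DSS cells of cluster 4 beside its normal cells. Of 8128 genes with at least 10 CPM in 1 or both libraries, 981 (12.1%) were at least 2-fold higher in DSS and 562 (6.91%) at least 2-fold lower, on the log2(CPM + 1) scale. The same call gave 5.06% and 4.23% in cluster 13, 2.87% and 4.44% in cluster 2, and 3.45% and 1.84% in cluster 5, which had 36 to 102 normal cells. In cluster 4, asking that the nearer bound of the exact 95% counting interval of the ratio pass 2-fold left 36 genes higher (0.443%) and 67 lower (0.824%), and these are the differences that the counts can resolve. The interval treats the UMIs of all cells as independent, so it says nothing of the spread between cells or between mice.

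**Figure D3:**
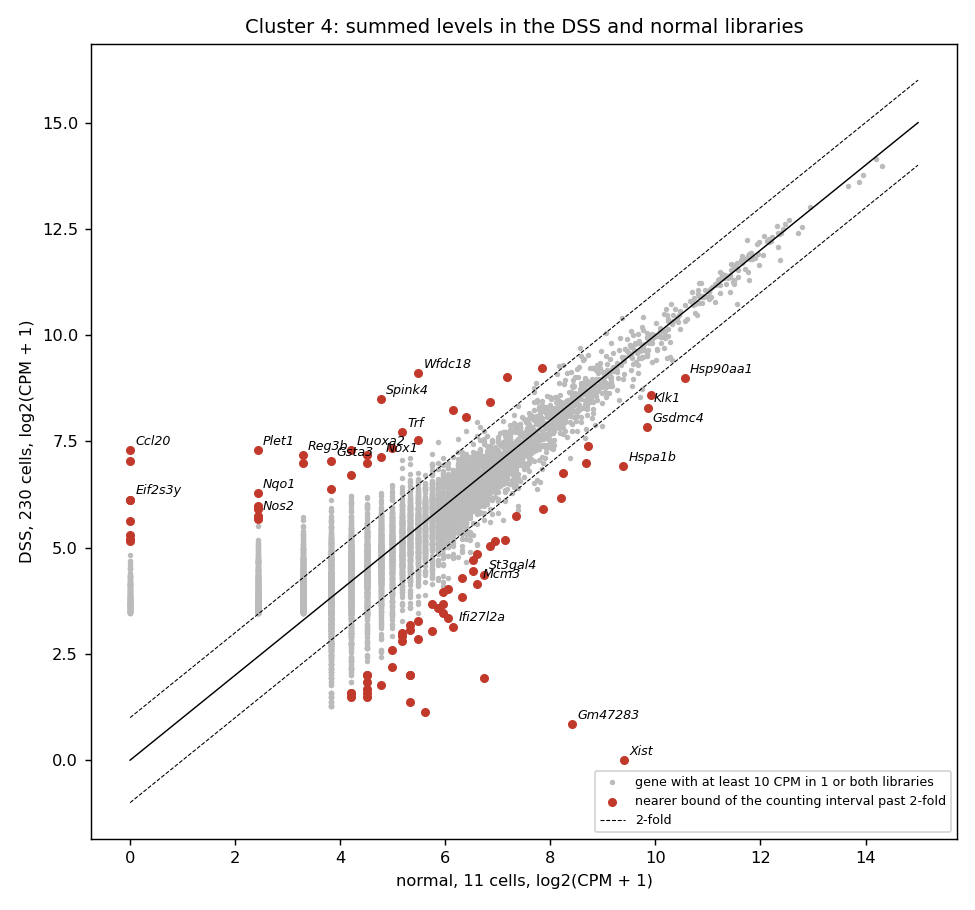
Summed levels of cluster 4 in the normal library (x axis, 11 cells) and the DSS library (y axis, 230 cells) as log2(CPM + 1), one point per gene, with red points where the nearer bound of the counting interval passes 2-fold. The vertical stripes on the left are genes with 0, 1 or 2 UMIs in the normal cells, and Ccl20, Wfdc18 and Plet1 lie above the upper 2-fold line while Xist, Hspa1b and the Mcm genes lie below the lower one.

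Ccl20, the chemokine that draws CCR6-bearing lymphocytes and dendritic cells to the epithelium, had the largest ratio. It had 0 UMIs in the 11 normal cells and 777 UMIs in the DSS cells (155 CPM, 145 to 167 CPM), which makes it at least 11.8-fold higher against a floor of 3 UMIs over the summed normal cells, while the exact interval of its log2 ratio began at 3.26. A UMI of Ccl20 was found in 47.4% of the DSS cells, and after thinning in 27.8% (21.7% to 34.7%), against 0 of 87 cells of the leukocyte-rich clusters. In the normal cells of cluster 14 it stood at 5.56 CPM. In the DSS cells of clusters 13, 2 and 5 it stood at 38.1, 14.6 and 29.8 CPM, and in those of clusters 10 and 7 at 175 and 11.9 CPM, where Hoxb13 stood at 377 and 401 CPM.

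The proximal promoter of Ccl20 is shown because this chemokine is a known target of NF-kappaB and had the largest ratio. The RefSeq promoter table (GRCm38.p6, 250 bases before to 50 after each start) holds 12 of the 15 genes with the highest ratios. The NF-kappaB consensus, searched on both strands, was in the promoters of 2 of the 12, Ccl20 and Reg3g, beside 8.46% of all 32851 promoters. No excess is read from so few promoters, whose genes were ranked on these same data. The windows below lie at chr1:83116676-83116705 on the plus strand and chr6:78468978-78469007 on the minus strand, with the match in capitals, and a match is a description of letters and not a binding site.
Ccl20: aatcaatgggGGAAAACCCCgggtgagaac
Reg3g: cgcttttgatGGGAAACCCCtagagtccat

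Of 15 oxidative defence genes entered, 5 were at least 2-fold higher in DSS (Nox1, Duoxa2, Duox2, Nos2 and Nqo1) and 0 lower, beside 12.1% and 6.91% of all genes. The median log2 ratio of the list was 0.32, beside 0.04 over all genes. Nox1, the NADPH oxidase of the colon, stood at 26.2 CPM in the normal cells (6 UMIs) and 139 CPM in the DSS cells, a log2 ratio of 2.36 (interval 1.27 to 3.85). Duoxa2, which brings the dual oxidase to the surface, stood at 17.5 and 155 CPM, a log2 ratio of 3.08 (1.79 to 5.03), and Duox2 itself at 39.4 and 137 CPM. Nos2, the inducible nitric oxide synthase, stood at 4.37 CPM (1 UMI) and 53.0 CPM, a log2 ratio of 3.33 (1.11 to 8.91). Nqo1, a quinone reductase driven by the oxidant sensor Nrf2, stood at 4.37 CPM (1 UMI) and 76.6 CPM, a log2 ratio of 3.85 (1.64 to 9.44).

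The level of Nox1 was also above that of the neighbouring clusters. Its 139 CPM in the DSS cells compared with 92.3, 30.6 and 29.3 CPM in the DSS cells of clusters 13, 2 and 5. The scavenging enzymes showed smaller ratios, with Gpx2 at 3197 and 3732 CPM, Prdx1 at 1150 and 1439 CPM, and Sod2 at 201 and 184 CPM. Nos2 was higher in DSS in the neighbours as well, with log2 ratios of 4.53, 2.28 and 3.62 in clusters 13, 2 and 5, which come from the same pair of libraries.

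The chemokine and cytokine list held 7 of 11 members at least 2-fold higher and 1 lower, beside 12.1% and 6.91% of all genes, with a median log2 ratio of 1.44 (0.88 to 3.74 over the alternatives). Cxcl2, which attracts neutrophils, stood at 30.6 and 160 CPM, but its 7 normal UMIs all lay in 1 cell. Il18, a cytokine made by resting epithelium, stood at 56.9 and 177 CPM, and Ccl28, a mucosal chemokine, at 26.2 and 73.0 CPM. Ccl25 was the member that was lower, at 17.5 and 6.80 CPM. Outside the list, Tnf stood at 17.5 and 103 CPM and Tnfaip3, the feedback inhibitor of NF-kappaB, at 21.9 CPM (5 UMIs, 3 of them in 1 cell) and 127 CPM. In the normal cells of cluster 14 Tnfaip3 stood at 102 CPM, close to its DSS level, and Tnf at 12.2 CPM. Leukocyte-rich clusters of the DSS library carried far more Cxcl2 (4178 CPM) and also more Tnf (144 CPM) and Tnfaip3 (457 CPM), and their part in these values was not tested. Neutrophil genes summed to 4.37 CPM in the normal cells of cluster 4 and 42.4 CPM in the DSS cells, with 2 of 2 entered genes higher (S100a8 at 0 and 11.8 CPM, S100a9 at 0 and 17.8 CPM). Plasma cell genes summed to 166 and 277 CPM, with 2 of 3 entered genes higher, Igkc at 0 and 17.0 CPM and Iglc2 at 0 and 13 CPM. By the interval 0 genes of the neutrophil and plasma cell lists passed 2-fold. For 0 UMIs in the normal cells the exact Poisson upper bound was 16.1 CPM. Igkc stood at 36415 CPM in the leukocyte-rich clusters of the DSS library.

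Several other genes passed 2-fold by the interval. Wfdc18, a small whey acidic protein of the antiprotease family, stood at 43.7 CPM (10 UMIs) in the normal cells and 551 CPM in the DSS cells, a log2 ratio of 3.63 (2.77 to 4.72), with 60% of the normal UMIs in 1 cell. It was kept in 76.8% of thinned DSS cells, against 5.75% in the leukocyte-rich clusters. Plet1, a surface protein of migrating epithelium, stood at 4.37 CPM (1 UMI) and 155 CPM, a log2 ratio of 4.86 (2.67 to 10.46). In the other DSS cells Plet1 stood at 238 CPM, and in those of cluster 5 at 478 CPM. The log2 ratios in clusters 13, 2 and 5 were 5.60, 2.09 and 2.05 for Wfdc18 and 2.83, 2.63 and -0.36 for Plet1. Timp3, an inhibitor of matrix metalloproteinases, stood at 4.37 CPM (1 UMI) and 61.8 CPM, a log2 ratio of 3.55 (1.33 to 9.13). Trf, which carries iron, stood at 35.0 and 208 CPM, and Gsta3, a glutathione transferase, at 13.1 (3 UMIs) and 130 CPM, a log2 ratio of 3.21 (1.75 to 5.59). Trf and Gsta3 also had high levels in the DSS cells of cluster 13, at 137 and 133 CPM.

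Several antimicrobial and mucus genes had high ratios but were no higher in cluster 4 than in the leukocyte-rich clusters. The antimicrobial list held 7 of 10 members at least 2-fold higher and 0 lower, beside 12.1% and 6.91% of all genes, with a median log2 ratio of 3.09 (0.85 to 5.04 over the alternatives). Its summed level differed little, at 6027 CPM in the normal and 6290 CPM in the DSS cells. Reg3b, an antibacterial lectin, stood at 8.75 CPM (2 UMIs) in the normal cells and 143 CPM in the DSS cells, whereas it stood at 404 CPM in the leukocyte-rich clusters and 26543 CPM in the DSS cells of cluster 6. Thinned shares of cells with a UMI of Reg3b were 34.5% in cluster 4 and 64.4% in the leukocyte-rich clusters (74.8% and 76.9% before thinning). Reg3g stood at 0 UMIs and 68.8 CPM, with 80.2 CPM in the leukocyte-rich clusters, and 52.0% of its 344 UMIs in the DSS cells of cluster 4 came from 1 cell. The goblet genes Zg16 and Muc2 stood at 131 and 126 CPM in cluster 4 and at 237 and 157 CPM in the leukocyte-rich clusters, with thinned shares of 22.2% and 17.0% against 47.1% and 37.9%, and 53.7% of the UMIs of Zg16 in cluster 4 came from 1 cell. Whether the levels of Reg3b, Reg3g, Zg16 and Muc2 are expression by cluster 4 was not tested. The part of free RNA in them was not tested either, so these levels are not read. The leukocyte-rich clusters were not all pure, since Ptprc had a UMI in 50.9% of the cells of cluster 8, the lowest share among the 6. For Spink4 the measures disagreed, with 359 CPM against 221 CPM and thinned shares of 39.2% against 43.7%, so no order is read. Slpi (61.2 CPM) and C3 (38.2 CPM) were also below their levels in the leukocyte-rich clusters, 735 and 357 CPM.

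Of the 36 genes higher by the interval, 16 had at least as high a level in the leukocyte-rich clusters of the DSS library. The corresponding count was 32 of the 67 genes lower by the interval, so it did not set the higher genes apart. At least 2-fold higher in clusters 13, 2 and 5 as well were 22, 21 and 24 of the 36. Over all genes entered in these clusters the shares were 5.06%, 2.87% and 3.45%. For the 67 genes lower by the interval, the counts at least 2-fold lower in these clusters were 31, 44 and 25. The shares of all genes lower there were 4.23%, 4.44% and 1.84%. In the normal cells of cluster 14 Plet1 stood at 12.8 CPM, Duoxa2 at 26.1 CPM, Gsta3 at 12.8 CPM and Wfdc18 at 3.89 CPM. Nox1 stood at 3.34 CPM there, and Nos2 and Trf each at 0.556 CPM. Nqo1 stood at 40.6 CPM there, less than 2-fold below its DSS level. Mgat4c was lower than there, with 60.8 CPM in the DSS cells against 207 CPM. Sval1 stood at 59.4 CPM, against 55.2 CPM in the leukocyte-rich clusters.

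DNA replication genes were lower in the DSS cells than in the 11 normal cells. Of 16 S phase genes entered, 15 were at least 2-fold lower and 0 higher, beside 6.91% and 12.1% of all genes, 7 of them by the interval, and the median log2 ratio was -1.59. Mcm3, a subunit of the replicative helicase, stood at 96.2 CPM (22 UMIs in 6 cells) in the normal cells and 16.8 CPM in the DSS cells, a log2 ratio of -2.45 (-3.21 to -1.77). Mcm5 stood at 78.7 and 13.4 CPM, Mcm2 at 91.9 and 20.8 CPM, and Mcm4 at 52.5 and 11.8 CPM. Other genes of replication and of chromatin assembly behind the fork followed, with Lig1, the DNA ligase, at 61.2 and 11.8 CPM, Chaf1b, a histone chaperone, at 52.5 and 7.20 CPM, Uhrf1, a maintenance factor of DNA methylation, at 56.9 and 11 CPM, and Hells, a chromatin remodeller, at 61.2 and 10.0 CPM, with 57.1% of its normal UMIs in 1 cell.

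Cell by cell, the S phase list made up a median of 10.8 UMIs per 10000 in the normal cells (range 0 to 21.9) and 2.66 in the DSS cells (0 to 24.9). The ranges overlapped fully, and some DSS cells were as high as any normal cell. For the G2/M list the medians were 7.55 and 5.10 per cell, 3 of 12 genes were at least 2-fold higher and 4 lower, beside 12.1% and 6.91% of all genes, and the median log2 ratio was -0.15. The S phase list was lower in DSS in cluster 2 as well (median -2.27) and less so in clusters 5 (-0.78) and 13 (-0.46). Against the normal cells of cluster 14 the median turned to 0.16, where Mcm5 stood at 11.7 CPM, so the direction depended on which normal cells were compared.

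The promoters of the S phase list are given because E2F, the factor that drives replication genes, is known to bind many of them. The letters TTTGGCGC or TTTCCCGC on either strand were in the promoters of 7 of the 16 S phase genes with an entry, beside 1.56% of all promoters. The windows lie at chr8:75109349-75109378 (plus strand) for Mcm5, chr1:128359734-128359763 (minus strand) for Mcm6 and chr19:38930917-38930946 (plus strand) for Hells, with the match in capitals.
Mcm5: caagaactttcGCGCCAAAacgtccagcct
Mcm6: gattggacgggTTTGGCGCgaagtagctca
Hells: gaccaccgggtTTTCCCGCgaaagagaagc

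**Figure D4:**
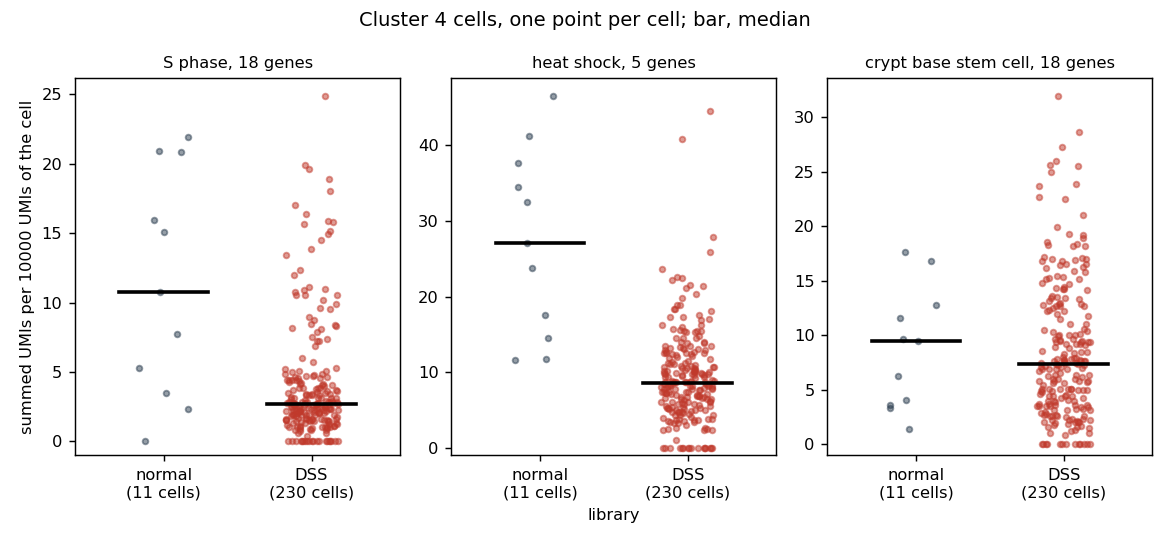
UMIs of 3 gene sets per 10000 UMIs of each cell of cluster 4 (y axis) in the normal and DSS libraries (x axis), one point per cell and a bar at the median. The medians were 10.8 and 2.66 for S phase, 27.1 and 8.58 for heat shock and 9.47 and 7.37 for the crypt base stem cell list, and the points of both libraries overlap in each panel.

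Some inducible chaperone genes were lower in the DSS cells. Hspa1b stood at 665 CPM in the normal and 119 CPM in the DSS cells of cluster 4, a log2 ratio of -2.47 (-2.74 to -2.21), and at -3.38, -3.35 and -3.65 in clusters 13, 2 and 5. Hspa1a stood at 407 and 125 CPM, Hsph1 at 293 and 70.6 CPM, and Hsp90aa1 at 1505 and 505 CPM. Together, 5 such genes (these and Dnajb1), chosen after their values were seen, made up 11.6 to 46.5 UMIs per 10000 in each normal cell, and 0 to 44.6 in the DSS cells. Heat shock genes also respond to the dissociation of tissue, and the part of cell handling in these values was not tested. Of the whole list of immediate early and dissociation stress genes, 4 of 22 were at least 2-fold lower and 0 higher, beside 6.91% and 12.1% of all genes, with a median of 0.24.

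Of 23 interferon and MHC class I genes entered, 8 were at least 2-fold lower and 2 higher, beside 6.91% and 12.1% of all genes, and the median log2 ratio was -0.30. By the interval 0 genes of the list were lower past 2-fold and 1 was higher. Outside the list, Ifi27l2a, an interferon-induced mitochondrial protein, stood at 70.0 and 7.80 CPM, although 81.2% of its 16 normal UMIs lay in 1 cell. Bst2, the tetherin that holds viruses at the membrane and also outside the list, stood at 122 and 34.6 CPM over 8 of the 11 normal cells. Cxcl10, an interferon-induced chemokine, went the other way with 0 UMIs and 48.8 CPM, but stood at 180 CPM in the leukocyte-rich clusters. Ifi27l2a was lower in DSS in clusters 13, 2 and 5 too, at -5.19, -2.58 and -4.01.

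Among other genes lower in DSS by the interval, St3gal4, a sialyltransferase, stood at 105 and 19.6 CPM, and Klk1, a kallikrein protease, at 927 and 312 CPM, with 58.3% and 59.9% of their normal UMIs in 1 cell. In the normal cells of cluster 14 they stood at 131 and 394 CPM, so that Klk1 was less than 2-fold lower against these. Gsdmc4, a gasdermin, stood at 919 and 227 CPM. The mucus and glycosylation list, which holds St3gal4, had 5 of 22 members higher and 2 lower, beside 12.1% and 6.91% of all genes, with a median of 0.23. Gm42031, a long noncoding RNA, stood at 105 and 2.80 CPM. Gm47283, annotated on chromosome Y, stood at 341 and 0.800 CPM, that is, in the library without Eif2s3y. Of the 67 genes lower by the interval, 25 had over 50% of their normal UMIs in 1 cell, and 24 were at least 2-fold lower against the normal cells of cluster 14. For the 36 higher genes these counts were 16 and 27, and the 16 take in genes with only 1 normal UMI. Both comparators are set against the same DSS cells, so the counts of 24 and 27 are no independent support.

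Of the rising part of the study's injury signature, 17 of 49 members were at least 2-fold higher and 5 lower, with a median of 0.49, beside 12.1% and 6.91% of all genes. That signature was assembled by the study from injury models that include DSS, so it is not independent evidence of direction. Its falling part had 4 of 43 higher and 2 lower, with a median of 0.04. The wound and fetal-like list had 7 of 19 higher and 0 lower, with a median of 0.64 and 0 genes past 2-fold by the interval. Ly6a, the Sca1 antigen, stood at 101 and 228 CPM, below the 644 CPM of the other DSS cells and the 865 CPM of the normal cells of cluster 14. Areg, a growth factor of the EGF family, stood at 206 and 434 CPM and Anxa1 at 166 and 322 CPM, but in the normal cells of cluster 14 they stood at 413 and 297 CPM. Clu, the marker of revival stem cells, stood at 4.37 CPM (1 UMI) and 22 CPM, a log2 ratio of 2.10 (-0.18 to 7.65), with a thinned share of 3.09% in cluster 4 and 3.45% in the leukocyte-rich clusters.

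Signalling lists had 1 to 4 members higher. Beside 12.1% of all genes higher and 6.91% lower, the YAP/TAZ list had 4 of 11 genes higher and 0 lower, the Wnt list 2 of 14 higher and 1 lower, and the Notch and fate list 1 of 14 higher and 0 lower. By the interval 0 genes of these lists passed 2-fold. The crypt base stem cell list itself had 2 of 15 higher (Cd44 and Ephb3) and 0 lower, with a median of 0.43, whereas the per-cell median of the list was lower in the DSS cells, at 7.37 against 9.47 UMIs per 10000. Among BMP targets Id1, an inhibitor of differentiation, stood at 227 and 599 CPM, a log2 ratio of 1.39 (1.00 to 1.82), but at 971 CPM in the normal cells of cluster 14. The hypoxia list had 4 of 10 higher and 0 lower, with a median of 0.81 (0.29 to 4.74 over the alternatives), among them Ddit4 at 30.6 and 87.2 CPM. Here too 0 genes passed 2-fold by the interval.

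Cholesterol synthesis and secretory stress genes had 0 of 23 and 0 of 24 members past 2-fold, with medians of 0.12 and 0.01. Cytosolic ribosomal proteins had 1 of 88 past 2-fold and a median of 0.02, and the nuclear-encoded respiratory chain 3 of 85 and a median of -0.17. Beside 12.1% higher and 6.91% lower of all genes, tight junction genes had 4 of 27 higher and 0 lower (median 0.32), keratins and the cytoskeleton 5 of 24 higher and 0 lower (median 0.38), butyrate and fat oxidation 0 higher and 1 of 24 lower, and xenobiotic metabolism 1 higher and 2 of 24 lower. MHC class II genes had 2 of 5 higher and a median of 0.82 (0.78 to 5.09 over the alternatives), and Cd74, the invariant chain, stood at 157 and 278 CPM, with 10728 CPM in the leukocyte-rich clusters.

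**Figure D5:**
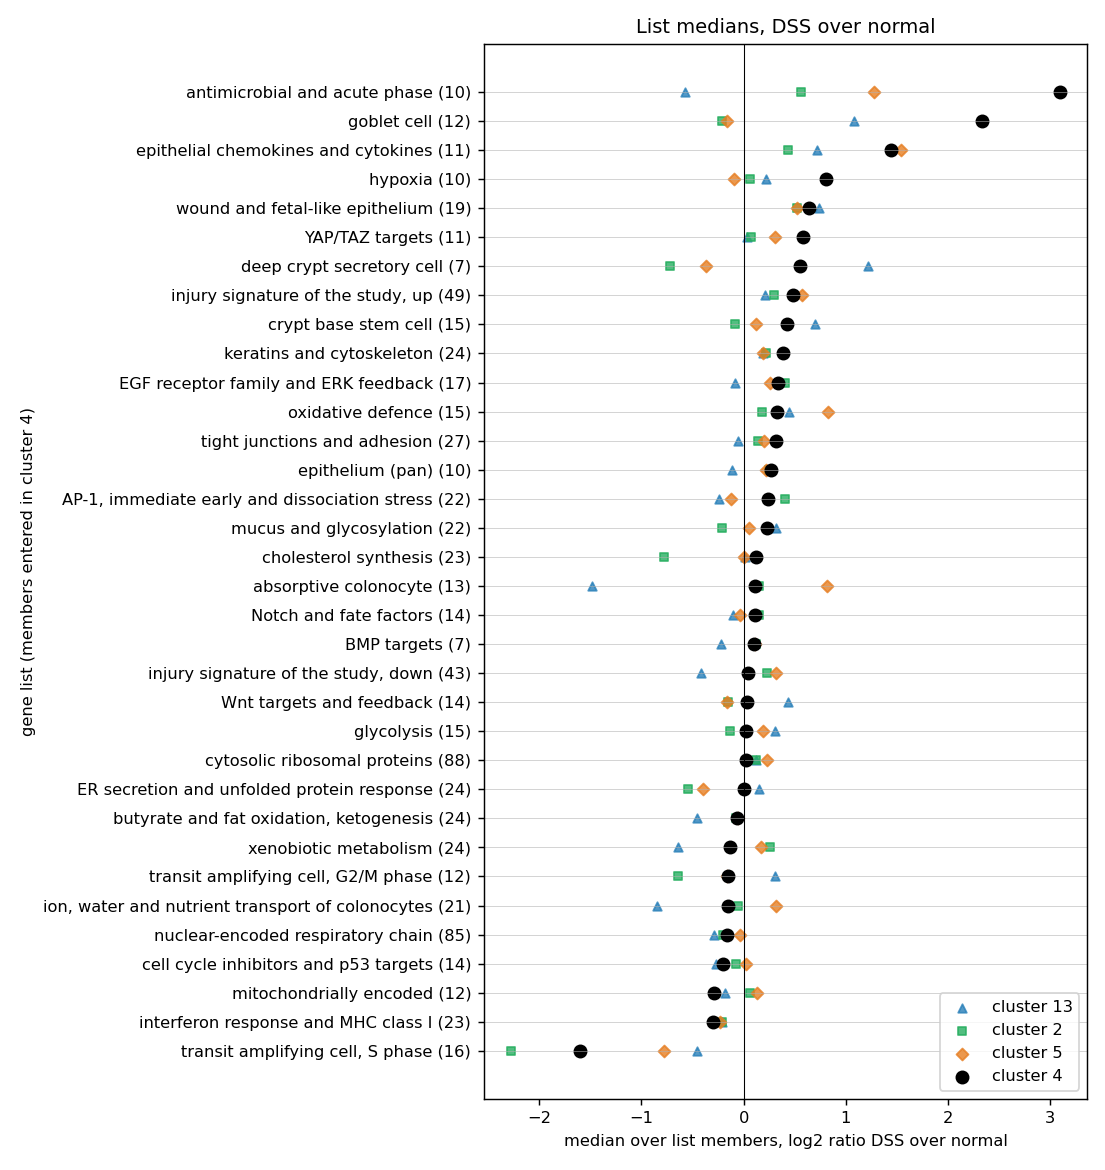
Median log2 ratio of DSS over normal (x axis) over the members of each gene list with at least 5 members entered in each cluster (y axis, with the members entered in cluster 4), in cluster 4 and in clusters 13, 2 and 5. Of the lists plotted, S phase is the lowest in cluster 4 at -1.59 and the antimicrobial list the highest at 3.09, and most lists lie near 0 in every cluster. The antimicrobial median takes in genes with 0 to 2 normal UMIs, and the list summed to 6027 CPM in the normal and 6290 CPM in the DSS cells.

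Cells of cluster 4 also varied among themselves. Over cells thinned to 5000 UMIs (9 normal, 194 DSS), the ratio of variance to mean had a median of 0.89 and 1.06 over 2791 genes with a mean of at least 0.2. The 10 genes with the highest ratio in both libraries were the mitochondrial transcripts mt-Co1, mt-Co2, mt-Co3, mt-Cytb, mt-Atp6 and mt-Nd4, the nuclear RNA Malat1, and Sycn, Nupr1 and Gpx2. Sycn, a zymogen granule protein, had ratios of 20.3 and 9.22, and 1 normal cell held 68.8% of its UMIs. Nupr1, a stress-induced chromatin protein, had ratios of 5.07 and 8.20, and Gpx2 had 18.3 and 4.53. Within the DSS cells the crypt base stem cell list ran from 0 to 32.0 UMIs per 10000 with a median of 7.37, over cells that went down to 1004 UMIs.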

How the data were processed

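Single colonic crypt cells were sequenced with 10x 3′ v3 chemistry. Per the labels, the authors aligned reads to mm10 with Cell Ranger 3.0.0 and clustered cells with Seurat 3.1.4, and they deposited raw UMI counts per gene and cell together with cluster labels. Cells were taken from the 2 colonic libraries by cluster label (kept cells held 19906845 normal and 32397122 DSS UMIs). Counts were summed per cluster and library and scaled to CPM. Genes entered with at least 10 CPM in 1 or both libraries, and ratios are log2(CPM + 1) differences. Intervals are exact Poisson (levels), Clopper-Pearson (shares) or conditional binomial (ratios), all at 95%. Leukocyte-rich clusters had a Ptprc UMI in over 50% of cells. No doublet caller was run. The stated filter (at least 1500 genes, at most 25% mitochondrial UMIs) was an alternative, since 29 cluster 4 cells had fewer genes. Named genes were the 20 leading genes, the 15 highest and 15 lowest ratios with at least 50 CPM, up to 4 per list, and the 10 most variable genes. A few genes that this rule names are not reported here. Genes singled out otherwise, including those by the interval, position and sex, were chosen after their values were seen. Members and lists were chosen with earlier results of these data known. Positions are from GENCODE vM21 (same build). Python 3.11.15, SciPy 1.17.1 and edgeR 4.0.16 (TMM factors, as an alternative) were used. The comparison was also run on simulated Poisson counts. These had no spread between cells, so they cannot show how the calls fare under such spread.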

Additional observations from a re-analysis of the deposited data

Results flagged for a closer look

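For Reg3b and Mgat4c the DSS over normal ratio went one way in cluster 4 and the other way in cluster 13, with both past 2-fold. Reg3b had a log2 ratio of 3.89 in cluster 4 and -1.11 in cluster 13. Mgat4c had 3.52 in cluster 4 and -1.16 in cluster 13. In cluster 4 these ratios rested on 2 normal UMIs for Reg3b (interval 2.18 to 7.08) and 1 for Mgat4c (1.31 to 9.11). Mgat4c stood at 60.8 CPM in the DSS cells of cluster 4, below the 207 CPM of the normal cells of cluster 14. In the normal cells outside cluster 4 it stood at 373 CPM. With 1 library for each condition neither difference was tested, and the level of Reg3b in cluster 4 was below that in the leukocyte-rich clusters.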

How the results depend on the processing

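No paired analysis was possible because each condition had 1 library, and for the same reason no replicate could be left out. The 981 genes higher and 562 lower became 36 and 67 when called by the nearer bound of the counting interval, 2769 and 1117 with no floor, 139 and 109 with a floor of 50 CPM, 2411 and 1706 with cells thinned to 5000 UMIs (9 and 194 cells), and 380 and 303 with the normal cells of cluster 14 as comparator, an alternative added after seeing the data. With a floor of 10 CPM on the mean of both libraries 596 were higher, with a pseudocount of 5 CPM 358 were lower, and without the cells with most UMIs 893 were lower. Under the other alternatives the counts lay between 675 and 1426 and between 423 and 810. List members past 2-fold numbered 98, with 172 at no floor, 38 at 50 CPM, 192 in thinned cells and 76 to 128 otherwise. Of the 30 named genes, 28 to 30 kept their direction past 2-fold under the alternatives, except 18 against cluster 14, where the S phase median (0.16), Muc2 (-0.39), Mgat4c (-1.75), Hells (0.42), Mcm5 (0.18), Mcm3 (0.15), Uhrf1 (1.29) and Mcm4 (0.014) turned. The share of DSS cells was 15.5% outside leukocyte-rich clusters and 14.5% with the stated filter. Scaling by TMM or by the median of ratios gave 963 and 562 or 943 and 577 genes. Of 446 alternative values of the list medians, 17 lay outside the median counting interval of the list's members, and of lists with a median past 2-fold only S phase turned. The 228627 normal UMIs limit every comparison with the normal cells of cluster 4. The cause of these changes was not tested.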
